A study of Mus musculus with 8 samples.

Results

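The 9 genes described here, En1, En2, Gbx2, Otx2, Fgf8, Fgf17, Lmx1a, Barhl1 and Barhl2, pattern the midbrain-hindbrain boundary and the rhombic lip, from which the cerebellum and its granule neurons arise. Their accessible regions were taken as all ATAC-seq peaks overlapping the gene body or the 50 kb on either side of it (mm10, GENCODE release M21). This gave 134 of 152984 peaks in the wild-type (WT) list, 105 of 106974 in the heterozygous (het) list and 157 of 174407 in the mutant list. The cells were granule neuron progenitors (GNPs) isolated at postnatal day 7 (P7) from cerebella of mice whose strain the labels spell C56Bl6/J, with 3 WT, 3 mutant and 2 het libraries named by Chd7 genotype. Chd7 encodes an ATP-dependent nucleosome remodeller. In the study, homozygous mutants are Atoh1-Cre::Chd7 f/f, heterozygotes are Atoh1-Cre::Chd7 f/+ and WT mice are Chd7 f/f, so that Chd7 is removed in the Atoh1-expressing granule lineage and not in the earlier neuroepithelium in which the midbrain-hindbrain boundary forms. These genotypes are given for the RNA-seq and the mouse experiments, and the ATAC-seq methods do not repeat them. Removal was not complete. The paper reports Chd7 protein left in the posterior lobe of the mutants, which it puts down to a probable lower recombination efficiency of the Cre line. The study describes the WT and mutant replicates as technical.

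ATAC-seq tags open DNA with adapters carried by a transposase, and a peak marks a place where insertions pile up. Each list was called once on the pooled libraries of its genotype, so every value below is 1 value per genotype, with no error between libraries and no test. Intervals cover counting error only. After filtering, the WT pool held 50394313 tags, the het pool 30923002 and the mutant pool 51030229. By the submitters' notes het reads were aligned with another program, and they were extended to 200 bp, against 90 bp in WT and 88 bp in mutant. Het pileups are therefore given on their own scale, and only het peak positions are compared. Mutant tags were also shorter, 76 bp against 107 bp, a difference that cannot be told apart from genotype. In a preparation of many cells, fewer cells with an open site and less opening in each cell cannot be told apart either. Among marker genes, 9 of 10 of the GNP list had a WT peak within 1 kb of a transcription start site (TSS), with Zic2 the exception. Markers of other cells had them as well, 3 of 4 for Purkinje cells, 4 of 4 for GABAergic interneuron progenitors, 4 of 5 for glia, 2 of 3 for choroid plexus and roof plate and 1 of 2 for microglia. The 2 choroid plexus and roof plate markers with a peak were Otx2 and Lmx1a, themselves among the 9 genes, and Ttr had none. In mutant the counts were 10 of 10 for GNPs, 2 of 4 for Purkinje cells and 0 of 2 for microglia, and the same as in WT for the other 3 lists. Over all protein-coding genes, 69.4% had such a peak in WT and 70.2% in mutant. An open promoter therefore does not show in this preparation which cells it came from.

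Otx2 and Gbx2 encode homeodomain factors that repress each other, and the border between their domains positions the isthmic organizer. That organizer secretes the growth factors Fgf8 and Fgf17, and cells that receive the signal express the homeodomain genes En1 and En2. Next to this territory lies the rhombic lip, where Lmx1a, a LIM-homeodomain gene, marks the roof plate border, and where the Bar-class homeodomain genes Barhl1 and Barhl2 come on in Atoh1-expressing precursors of granule neurons. The genes were thus read in postnatal cells long after the boundary has formed, in which Barhl1, En2 and, in posterior lobules, Otx2 are known to be still expressed.

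The accessible sequences that the results below turn on are printed here, each as the 300 bp around a WT summit, read on the plus strand of GRCm38.p6 (mm10) from RefSeq, with distance counted from the gene's start in its direction of transcription. The first pair are promoter windows just upstream of En1 and Barhl2. The next 4 are the strongest peak of all 9 genes, in an intron of Lmx1a, and strong distal peaks of Otx2, Barhl2 and En1. The last 3 had the largest differences in height between WT and mutant among the stronger peaks of En1, Gbx2 and Otx2. Capitals mark matches on either strand to CAGATG or CAGCTG (E-boxes of the kind proneural factors bind), TAATTA (a homeodomain core), TAATCC (an Otx-type core) and TTGGCA (a nuclear factor I half-site). CAGCTG and TAATTA read the same on both strands, and none of the 5 motifs contains another. None of the printed windows overlaps an annotated exon.
En1 -0.2 kb, chr1:120602109-120602408: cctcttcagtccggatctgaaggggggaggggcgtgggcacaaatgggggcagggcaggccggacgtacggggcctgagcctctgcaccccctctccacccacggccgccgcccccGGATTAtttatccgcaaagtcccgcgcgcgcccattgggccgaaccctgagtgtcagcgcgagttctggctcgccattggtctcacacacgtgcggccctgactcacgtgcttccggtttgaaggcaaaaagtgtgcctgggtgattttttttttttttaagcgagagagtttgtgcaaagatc
Barhl2 -0.5 kb, chr5:106458484-106458783: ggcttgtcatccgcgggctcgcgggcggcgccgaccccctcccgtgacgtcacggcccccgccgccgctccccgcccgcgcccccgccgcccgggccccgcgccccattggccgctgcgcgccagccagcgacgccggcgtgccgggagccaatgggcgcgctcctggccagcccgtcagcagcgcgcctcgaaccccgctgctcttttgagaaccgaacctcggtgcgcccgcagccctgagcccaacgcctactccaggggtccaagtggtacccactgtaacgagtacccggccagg
Lmx1a +47.7 kb, chr1:167736820-167737119: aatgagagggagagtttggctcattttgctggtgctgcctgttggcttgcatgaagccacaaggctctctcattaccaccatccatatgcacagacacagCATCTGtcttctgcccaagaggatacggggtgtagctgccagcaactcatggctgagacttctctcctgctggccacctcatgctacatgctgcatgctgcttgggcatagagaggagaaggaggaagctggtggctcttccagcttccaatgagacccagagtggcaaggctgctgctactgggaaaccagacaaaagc
Otx2 -5.1 kb, chr14:48678745-48679044: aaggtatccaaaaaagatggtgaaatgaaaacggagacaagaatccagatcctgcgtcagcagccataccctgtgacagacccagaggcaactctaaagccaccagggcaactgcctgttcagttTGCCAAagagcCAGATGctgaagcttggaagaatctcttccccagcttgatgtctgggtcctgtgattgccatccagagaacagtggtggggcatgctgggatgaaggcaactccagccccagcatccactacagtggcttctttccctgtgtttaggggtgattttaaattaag
Barhl2 +37.1 kb, chr5:106420945-106421244: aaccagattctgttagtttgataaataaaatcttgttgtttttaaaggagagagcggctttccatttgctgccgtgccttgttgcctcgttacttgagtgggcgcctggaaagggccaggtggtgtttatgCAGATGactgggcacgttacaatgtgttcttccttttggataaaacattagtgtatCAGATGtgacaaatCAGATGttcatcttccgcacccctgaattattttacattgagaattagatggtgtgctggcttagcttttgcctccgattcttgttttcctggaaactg
En1 +25.1 kb, chr1:120627339-120627638: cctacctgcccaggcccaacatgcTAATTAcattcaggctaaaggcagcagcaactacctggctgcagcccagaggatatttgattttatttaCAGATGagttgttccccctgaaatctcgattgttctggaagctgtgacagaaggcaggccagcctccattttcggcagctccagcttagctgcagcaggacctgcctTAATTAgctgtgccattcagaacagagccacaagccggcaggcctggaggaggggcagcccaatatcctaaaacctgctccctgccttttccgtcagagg
En1 -15.7 kb, chr1:120586547-120586846: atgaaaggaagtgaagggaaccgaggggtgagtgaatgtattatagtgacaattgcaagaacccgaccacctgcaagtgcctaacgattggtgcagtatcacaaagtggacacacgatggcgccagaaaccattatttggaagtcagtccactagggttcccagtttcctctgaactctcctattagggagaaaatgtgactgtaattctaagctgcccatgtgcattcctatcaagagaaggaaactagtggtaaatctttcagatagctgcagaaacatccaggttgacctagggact
Gbx2 -12.2 kb, chr1:89943238-89943537: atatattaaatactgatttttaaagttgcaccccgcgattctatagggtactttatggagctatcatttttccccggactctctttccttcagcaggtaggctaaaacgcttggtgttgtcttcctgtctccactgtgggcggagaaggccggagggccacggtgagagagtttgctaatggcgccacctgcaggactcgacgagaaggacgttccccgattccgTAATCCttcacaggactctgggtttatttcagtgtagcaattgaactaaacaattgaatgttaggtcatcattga
Otx2 -35.7 kb, chr14:48709384-48709683: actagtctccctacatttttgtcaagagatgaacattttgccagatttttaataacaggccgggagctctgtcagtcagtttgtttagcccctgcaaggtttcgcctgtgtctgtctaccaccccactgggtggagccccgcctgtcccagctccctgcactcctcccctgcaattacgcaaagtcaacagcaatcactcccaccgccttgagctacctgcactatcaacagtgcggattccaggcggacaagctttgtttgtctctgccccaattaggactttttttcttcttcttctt
The Barhl2 window at +37.1 kb holds 3 matches to CAGATG and the En1 window at +25.1 kb holds 2 to TAATTA. The window at the Barhl2 promoter holds no match to any of the 5 and consists of 76.3% G and C. Over all 134 WT peaks of the 9 genes, 41 windows held CAGATG (30.6%, Wilson 95% interval 23.4 to 38.8%), against 34.8% of all WT windows of the same length. CAGCTG was found in 26.1% against 28.6%, TAATTA in 5.22% against 7.49%, TAATCC in 7.46% against 8.54% and TTGGCA in 20.1% against 27.4%, and each of the 5 intervals included the value for all WT peaks. Median GC content was 54.2% against 50%. The windows of these homeobox and growth factor genes therefore held none of the 5 motifs at a share beyond the counting interval of the list as a whole. A match is a run of letters and does not mark a bound site.

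To ask how densely peaks surround each gene, they were counted per 100 kb of window. The homeobox genes Barhl2, Otx2, En1 and En2 had the most in WT, with 18.0, 16.4, 15.2 and 14.1 peaks per 100 kb, more than 98.9%, 97.5%, 95.8% and 93.6% of 21938 protein-coding genes whose windows were made the same way. Barhl1 followed with 12.8 and Gbx2 with 10.7. Lmx1a, whose window of 259.5 kb is the longest, had 8.86, and the growth factor genes had 8.49 (Fgf17) and 7.54 (Fgf8), near the median of 6.94 over all genes. The length covered by WT peaks gave another order. It was 6051 bp for En2, 5534 for Otx2, 5393 for Barhl1, 4745 for Barhl2 and 4029 for En1. Fgf17 had 4162 bp, Fgf8 3980, Gbx2 2204 and the longer Lmx1a window 8488. By covered length En1 stood near the growth factor genes, and Barhl2 below En2, Otx2 and Barhl1. In mutant the median over all genes was 7.93, and the En2 window reached 21.6, more than 99.4% of genes. Fgf17 went from 8.49 to 15.1 and Fgf8 from 7.54 to 11.3, while Barhl1 stood at 12.8 in both lists. Barhl2 was the only window with fewer peaks in mutant, 18 against 19.

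**Figure D1:**
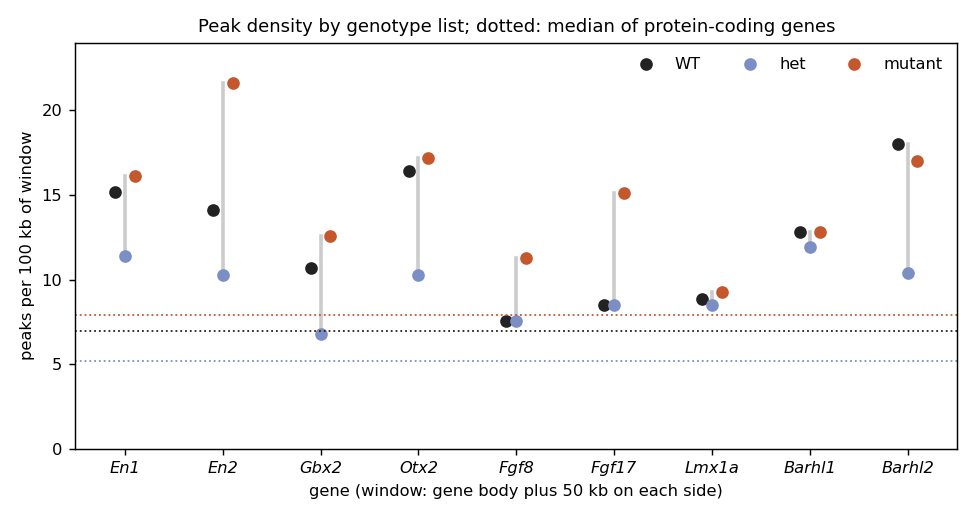
Peaks per 100 kb of window (vertical axis) for each of the 9 genes (horizontal axis) in the WT, het and mutant lists, 1 point per pooled list, with dotted lines at the median of protein-coding genes (WT 6.94, mutant 7.93, het 5.2). En2 is farthest apart, at 14.1 in WT and 21.6 in mutant, whereas the 3 Barhl1 points lie between 11.9 and 12.8.

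By location, 16.4% of the 134 WT summits lay within 1 kb of a TSS, 7.46% in exons, 31.3% in introns and 44.8% between genes. For the whole list these shares were 16.1%, 3.86%, 39.2% and 40.9%. Of the 22 peaks at a TSS, 12 belonged to the 9 genes themselves and 10 to neighbouring genes, 5 of them in the Fgf17 window, where they made up 5 of 9 WT peaks, and 2 in the Fgf8 window. Peaks at neighbouring TSSs had a median pileup of 35 tags, peaks at the genes' own TSSs 23 and peaks farther from any TSS 17. In mutant 16 peaks lay at neighbouring TSSs, 10 of them around Fgf17, and 18 at the genes' own.

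**Figure D2:**
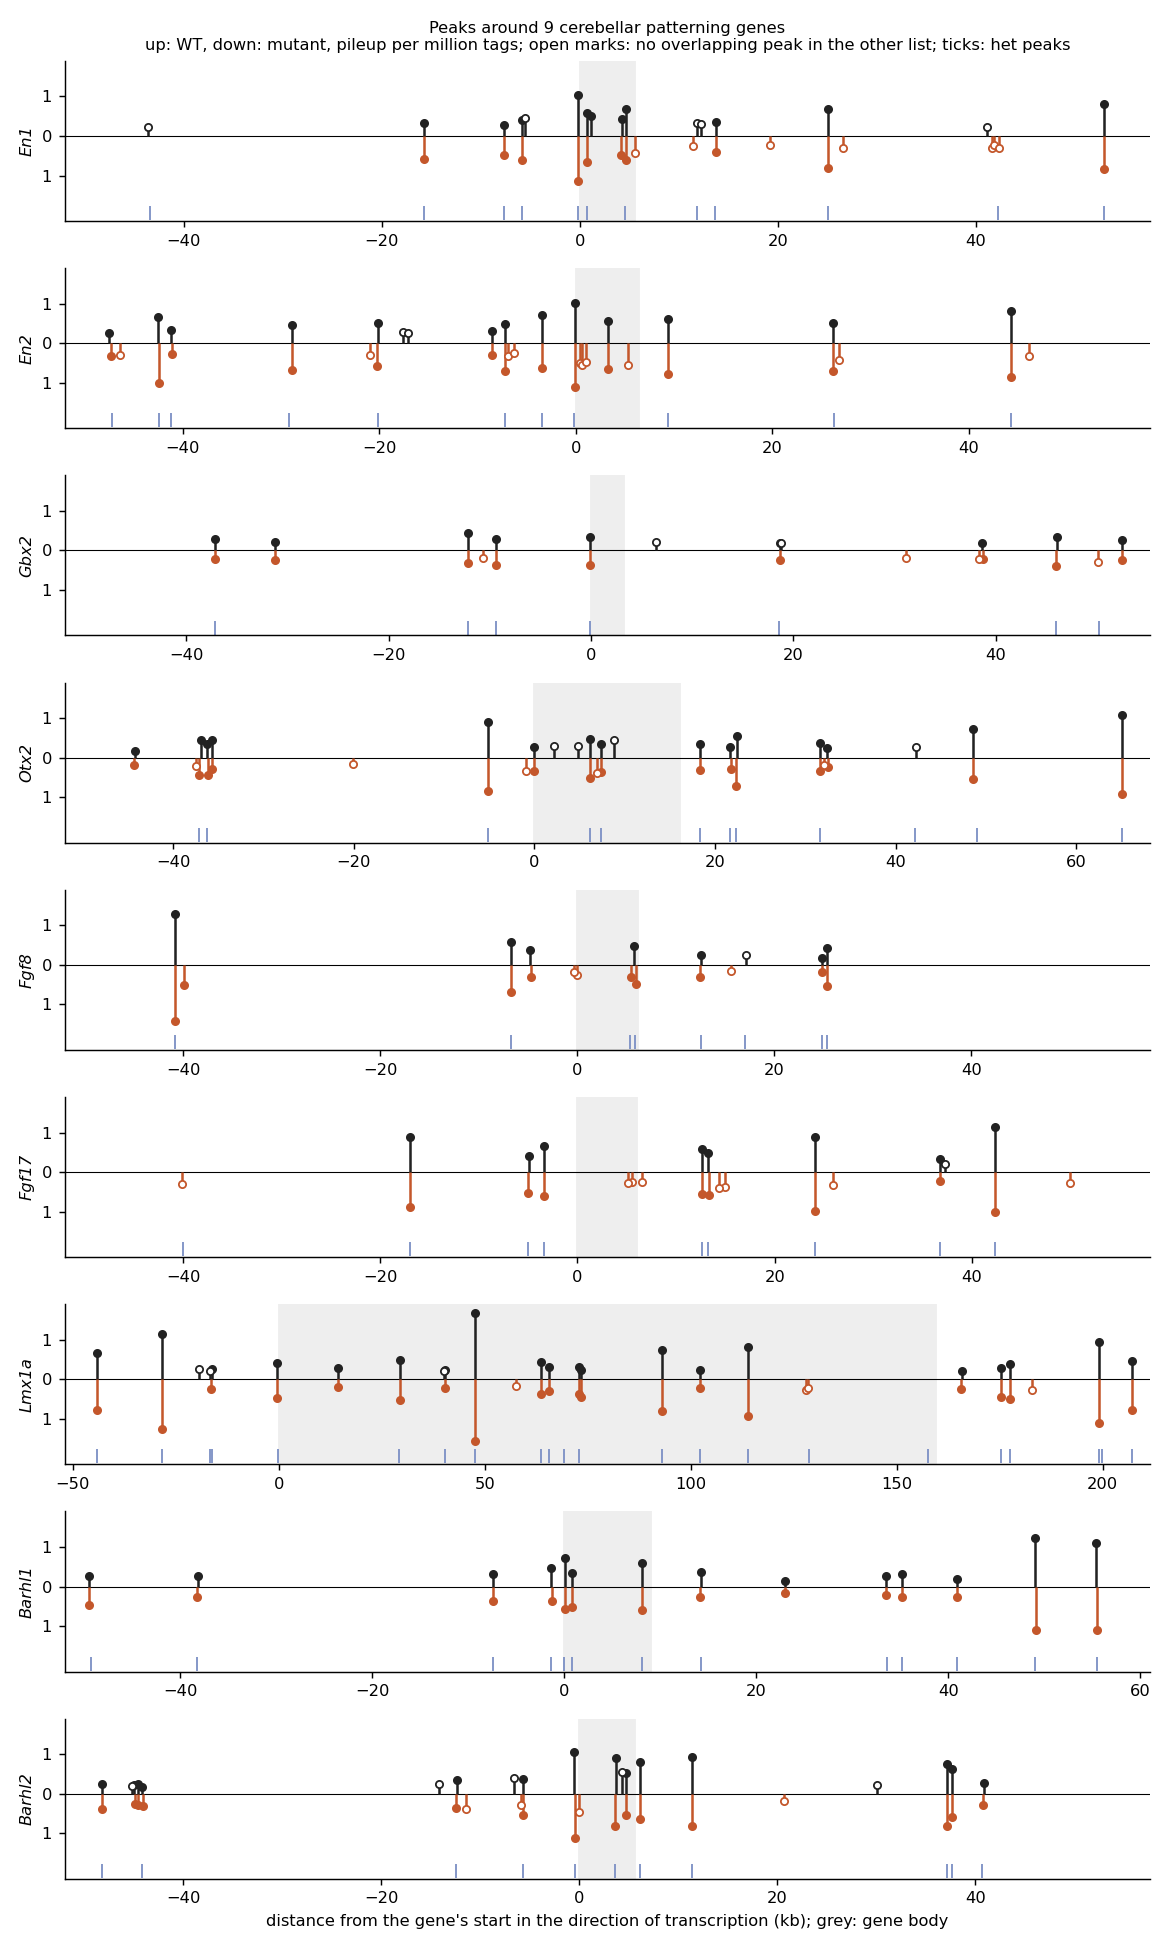
Peaks along each window, with distance from the gene's start in kb on the horizontal axis and pileup per 1000000 tags on the vertical axis, WT upward and mutant downward, het peaks as ticks and the gene body in grey. Open marks are peaks with no overlapping peak in the other list. The tallest peak stands 47.7 kb into Lmx1a in both lists, and Barhl1 has no open mark. Elsewhere open marks reach 28 tags in either list, where filled marks reach 84 in WT and 79 in mutant.

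Promoters were examined next. In WT and in het, 7 of the 9 genes had a peak within 1 kb of a TSS of their own, and in mutant 8 had one. Over protein-coding genes the share was 69.4% for WT, 70.2% for mutant and 67.3% for het. The difference was Fgf8, and Fgf17 had no such peak in any list.

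The promoters of the transcription factor genes En1, En2 and Barhl2 were the most open of the 9. The En1 peak (ENSMUSG00000058665.8, chromosome 1, 120602016 to 120602521, centred 0.2 kb upstream of the gene) had a pileup of 52 tags in WT and 58 in mutant (64 in het). Scaled to depth, as pileup per 1000000 tags, the ratio of mutant to WT was 1.10 (95% counting interval 0.744 to 1.63). The En2 peak (ENSMUSG00000039095.8, chromosome 5, 28165362 to 28165836) had 51 and 56 tags (92 in het), a ratio of 1.08 (0.729 to 1.62). The Barhl2 peak (ENSMUSG00000034384.11, chromosome 5, 106458404 to 106458964, minus strand) had 53 and 57 tags (76 in het), a ratio of 1.06 (0.718 to 1.57). All 3 promoters were thus slightly taller in mutant than in WT, by less than their counting intervals, each of which included 1. Barhl2 is on the study's list of genes with lower RNA in homozygous mutant GNPs, and no other of the 9 is. That list holds only genes that passed the stricter of the study's cutoffs, so absence from it does not show unchanged RNA.

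Barhl1 (ENSMUSG00000026805.14, chromosome 2, minus strand) was the one gene whose main promoter peak was lower in mutant, at 28916507 to 28916819, with 36 tags in WT, 34 in het and 29 in mutant (ratio 0.796, 0.471 to 1.33). A second, weaker Barhl1 peak 0.8 kb into the gene went the other way, from 17 tags to 26 (ratio 1.51). Neither interval excluded 1. The Lmx1a promoter (ENSMUSG00000026686.14, chromosome 1, 167688472 to 167689101) had 21 tags in WT, 23 in het and 24 in mutant (ratio 1.13, 0.602 to 2.13). The Gbx2 promoter (ENSMUSG00000034486.8, chromosome 1, 89931238 to 89931538, minus strand) had 17, 33 and 19 (ratio 1.10, 0.543 to 2.26). Both were low peaks, and Gbx2 had the lowest main promoter peak in WT and in mutant of the 7 genes with one in both.

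Otx2 (ENSMUSG00000021848.16, chromosome 14, 48657677 to 48673819, minus strand) has 10 annotated transcript starts, and its peaks were spread over several of them. The most open in WT and mutant lay 6.2 kb into the gene, at 48667495 to 48667690, with 24 tags in WT, 27 in het and 26 in mutant (ratio 1.07, 0.590 to 1.95). In het the peak at +7.4 kb was the taller, with 30 tags, where WT had 17 and mutant 19. The peak at the 5' end of the gene had 13 tags in WT and 17 in mutant and was not called in het. At the start 8.8 kb into the gene, a WT peak of 22 tags (48664993 to 48665182, -log10 q 6.99) had no counterpart in mutant or in het. Conversely, mutant peaks of 20 tags at +6.9 kb and 17 tags at -0.9 kb had none in WT or het. Each of these 3 unshared Otx2 peaks was weaker than the shared peak at +6.2 kb.

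Fgf8 (ENSMUSG00000025219.13, chromosome 19, 45736798 to 45742915, minus strand) and Fgf17 (ENSMUSG00000022101.6, chromosome 14, 70636203 to 70642268, minus strand) lacked a promoter peak in WT and in het. In mutant, Fgf8 had a peak of 13 tags at its start (45742789 to 45742887, -log10 q 3.79) and another of 9 tags 0.3 kb upstream (-log10 q 1.45). The first was at or above 21.6% of the mutant list by q, and the second was close to the q-value cutoff of 0.05 that the authors set. The lowest peak in the WT list had 7 tags, so a WT signal at this site below the cutoff was not measured.

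Outside promoters, the strongest peak of the 9 genes, by -log10 q as throughout, lay in an intron of Lmx1a, 47.7 kb from its start (167736703 to 167737246). Its pileup was 84 tags in WT and 79 in mutant (127 in het), a ratio of 0.929 (0.674 to 1.28). By q it was at or above 99.6% of all WT peaks. A further Lmx1a peak 28.4 kb upstream had 58 tags in WT, 97 in het and 64 in mutant (ratio 1.09, 0.752 to 1.58). Both were taller in WT than the Lmx1a promoter, which had 21.

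The same held for Otx2 and Barhl1, whose most open regions were distal. For Otx2, the peak 65.0 kb from the start, downstream of the gene (48608473 to 48609224), had 54 tags in WT, 77 in het and 47 in mutant (ratio 0.860, 0.569 to 1.29). The peak 5.1 kb upstream (48678609 to 48679025), in an intron of the antisense long non-coding gene Otx2os1, whose sequence is printed above, had 45, 49 and 43 (ratio 0.944, 0.607 to 1.47). Barhl1 had its strongest peaks 49.0 kb and 55.4 kb downstream, within introns of the neighbouring gene Ddx31. Their pileups were 62 in WT, 87 in het and 56 in mutant (ratio 0.892, 0.610 to 1.30) and 55, 62 and 56 (ratio 1.01, 0.681 to 1.49). The intervals of these 4 regions all included 1, so their heights did not differ beyond counting error.

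For Barhl2 the strongest distal peaks lay downstream, at +11.4 kb (106446397 to 106446877) with 47 tags in WT and 41 in mutant (59 in het), and at +37.1 kb (106420994 to 106421293) with 38 and 41 (57 in het). Their ratios were 0.861 (0.553 to 1.34) and 1.07 (0.668 to 1.70). En1 had peaks at +52.9 kb and +25.1 kb, in introns of the long non-coding gene 2610027F03Rik, with 41 and 35 tags in WT and 42 and 41 in mutant. Their ratios were 1.01 (0.642 to 1.60) and 1.16 (0.719 to 1.87). The En2 window had its highest -log10 q, 22.8 against 19.1 at the En2 promoter, at the TSS of the neighbouring gene Cnpy1 at +44.3 kb, with 41 tags in WT and 44 in mutant (ratio 1.06, 0.677 to 1.66).

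Around the growth factor genes the strongest peaks were promoters of neighbours. In the Fgf8 window these were the TSS of Mgea5 at -40.8 kb, with 65 tags in WT and 72 in mutant (ratio 1.09, 0.771 to 1.55), and that of Npm3 at -6.7 kb, with 29 and 35 (ratio 1.19, 0.708 to 2.02). In the Fgf17 window they were the TSS of Fam160b2 at +42.4 kb, with 58 and 52 (ratio 0.885, 0.597 to 1.31), and that of Npm2 at -17.0 kb, with 45 in both (ratio 0.988, 0.639 to 1.53). Among the remaining Fgf8 peaks, the one at +25.3 kb, downstream of the gene and over 1 kb from any TSS, was the most significant, with 21 tags in WT and 27 in mutant (ratio 1.27, 0.691 to 2.36). The Gbx2 window held few strong peaks, and its strongest, at -12.2 kb (89943328 to 89943471), had 22 tags in WT and 16 in mutant (ratio 0.718, 0.353 to 1.43).

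To see whether loss of Chd7 went with a change in height, the 111 WT peaks that overlapped a mutant peak were compared per 1000000 tags. The median log2 ratio of mutant to WT was 0.11 (0.02 to 0.17 by order statistics over peaks), against 0.08 over all 118098 shared WT peaks. In mutant 68 of the 111 were higher and 43 lower, that is 61.3% higher against 57.6% over all. At least 2-fold lower were 0 of 111, which allows a share of up to 2.70%, against 0.411% of all shared peaks. A shared peak needs a called mutant peak, and the lowest in the mutant list had 7 tags. The lowest WT peaks therefore could not be both shared and 2-fold lower, and 29 of the 111 had up to 14 tags. Such a fall would leave a WT peak unshared, whereas a rise has no such limit. At least 2-fold higher was 1, against 1.31%. Ratio intervals lay below 1 for 0 peaks and above 1 for 1, against 0.514% and 1.43% of all.

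The 1 peak called higher was at +24.8 kb from Fgf8 (45717914 to 45718146), with 9 tags in WT and 27 in the tallest overlapping mutant peak, a log2 ratio of 1.57. That mutant peak has its summit at the neighbouring +25.3 kb peak, where WT had 21 tags, and the mutant peak with the nearest summit at +24.8 kb had 9 tags, as in WT. With nearest summits, therefore, 0 of 111 shared peaks were 2-fold higher, against 1.28% of all. The others ranged from a log2 ratio of -0.67 to 0.92.

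**Figure D3:**
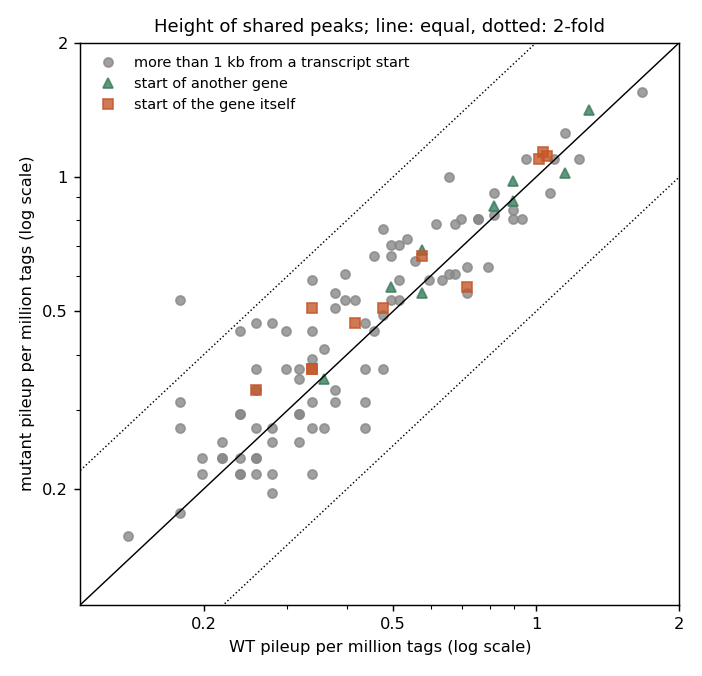
Mutant against WT pileup per 1000000 tags for the 111 shared WT peaks, on log scales, with peaks at the gene's own start as squares and those at another gene's start as triangles; the solid line marks equal height and the dotted lines a 2-fold difference. Points lie along the line of equal height, and the 1 point outside the dotted lines is the Fgf8 peak at +24.8 kb, at 9 tags in WT.

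Medians by gene lay close to 0. The median log2 ratio was 0.25 over the 7 shared Fgf8 peaks, which include the one at +24.8 kb, and 0.13 with nearest summits, a choice that moved no other gene's median at 2 decimals. It was 0.22 for En2, 0.21 for En1, 0.12 for Gbx2 and for Lmx1a, 0.06 for Barhl2, -0.02 for Otx2, -0.04 for Fgf17 and -0.07 for Barhl1. Shared peaks of the Engrailed windows leaned upward, with 10 of 11 around En1 and 10 of 13 around En2 higher in mutant, against 57.6% of all shared WT peaks. These counts leave out WT peaks without a mutant peak, 5 of 16 around En1 and 2 of 15 around En2, against 22.8% of all WT peaks. Of the En1 peaks, those at +0.7 and +1.1 kb were set against the same mutant peak of 34 tags, which is thus counted again. In the Otx2 window 6 of 15 were higher, and in the Barhl1 window 6 of 14. Over all 111 peaks, those with at least 30 tags in WT had a median of 0.01, as did those of the whole list, while peaks of 15 to 29 tags had 0.18 against 0.06 and peaks of up to 14 tags had 0.12 against 0.22.

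The largest differences among peaks whose -log10 q was at least 5 were also small relative to their counting intervals. En1 at -15.7 kb (120586556 to 120586785) went from 17 tags in WT to 30 in mutant, a log2 ratio of 0.80, with a ratio of 1.74 (0.931 to 3.37). Lmx1a at +207.2 kb had 24 and 39 tags (log2 ratio 0.68, ratio interval 0.941 to 2.79). En1 at -5.8 kb (120596465 to 120596660) had 20 and 31 (0.61, 0.845 to 2.83), and En2 at -42.5 kb (28123139 to 28123357) had 33 and 51 (0.61, 0.966 to 2.44). All 4 lay outside the gene body, and none of the intervals excluded 1. On the lower side, Otx2 at -35.7 kb (48709458 to 48709601), also in an intron of Otx2os1, went from 22 tags to 14. Its log2 ratio was -0.67 (ratio 0.628, 0.297 to 1.28). Of the 46 WT peaks of the 9 windows whose -log10 q was at least 10, it alone overlapped no het peak. That is 2.17%, against 2.999% of all such WT peaks. A het peak at 48709869 to 48710153 lay within 300 bp of it. When a partner within 300 bp counts, this Otx2 peak therefore has one in het. Fgf17 at +36.8 kb, in an intron of Dmtn, went from 17 to 11 (-0.65, ratio interval 0.271 to 1.45). Lmx1a at +14.3 kb, in an intron, went from 14 to 10 (-0.50, 0.280 to 1.71).

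**Figure D4:**
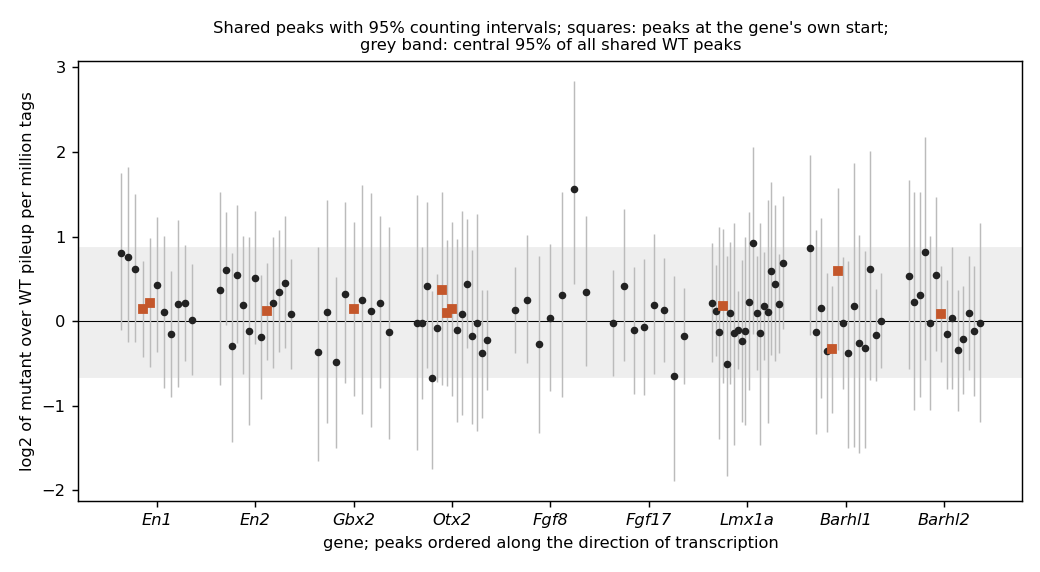
Log2 ratio of mutant to WT pileup per 1000000 tags (vertical axis) for each shared WT peak, grouped by gene and ordered along the direction of transcription, with 95% counting intervals as lines, squares for peaks at the gene's own start and the central 95% of all shared WT peaks (-0.66 to 0.86) as a grey band. Except for 1 Fgf8 peak, every interval crosses 0, and 10 of 11 En1 points lie above it.

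Peaks called in 1 list alone were then counted. In the mutant list no peak overlapped 23 of the 134 WT peaks (17.2%, Wilson 95% interval 11.7 to 24.4%), against 22.8% of all WT peaks. In the WT list none overlapped 45 of the 157 mutant peaks (28.7%, 22.2 to 36.2%), against 30.7% of all. The share of WT peaks lost was thus near that of the list as a whole, and so was the share of mutant peaks gained. Against het, 37 of 134 WT peaks had no partner (27.6%, 20.7 to 35.7%), nor had 56 of 157 mutant peaks (35.7%, 28.6 to 43.4%), where the whole lists had 36.9% and 41.3%. The WT share of 27.6% lay below the share of the whole list beyond its counting interval, but among peaks whose -log10 q was at least 5 the share was 9.52% (4.91 to 17.7%), an interval that included the 15.8% of the whole list.

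Unshared peaks were weak and narrow. The 23 unshared WT peaks had a median pileup of 13 tags, a median width of 115 bp and -log10 q values of 1.82 to 7.49, while shared WT peaks had medians of 21 tags and 300 bp. The 45 unshared mutant peaks had a median of 14 tags and -log10 q values up to 8.18. Where -log10 q was at least 10, 0 of 46 in WT lacked a mutant peak, which allows up to 6.52%, and 0 of 52 in mutant lacked a WT peak, which allows up to 5.77%. Over the whole lists 0.456% and 1.21% of such peaks lacked a partner. A het peak overlapped 5 of the 23 WT peaks (21.7%, 9.66 to 41.9%, against 13.2% over the whole list) and 7 of the 45 mutant peaks (15.6%, 7.75 to 28.8%, against 15.2%).

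**Figure D5:**
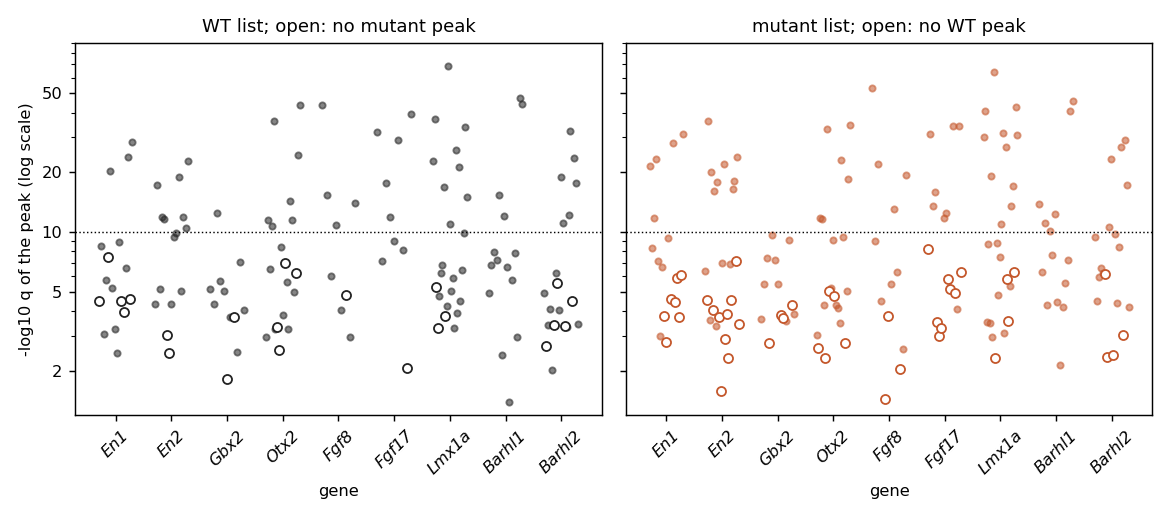
Each point is a peak, with its -log10 q on a log scale against its gene, WT on the left and mutant on the right; open marks have no overlapping peak in the other list and the dotted line is at 10. All open marks lie below the line, up to 7.49 in WT and 8.18 in mutant.

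Among the homeobox genes, WT peaks without a mutant peak were most numerous around En1 (5 of 16), Barhl2 (5 of 19) and Otx2 (4 of 19). Over the whole WT list the share was 22.8%, and differences between genes were not tested. At En1 the strongest by -log10 q was 5.5 kb upstream (120596866 to 120596979), with 23 tags, and it lay beside a shared peak at -5.8 kb that had 20 tags in WT and 31 in mutant. At Barhl2 the highest -log10 q, 5.56, was 6.6 kb upstream (106464779 to 106464868), with 20 tags, while the tallest, at +4.3 kb, had 28 tags and a -log10 q of 3.37. Otx2 had the one at +8.8 kb described above. Lmx1a had 3 of 23, with up to 13 tags, En2 2 of 15 and Gbx2 2 of 11. Fgf8 had 1 of 8, Fgf17 1 of 9 and Barhl1 none of 14. Several of these places have a shared peak beside them. When a partner within 300 bp counted, 16 of the 23 were left, a count not made over the whole list.

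Mutant peaks without a WT peak were most numerous around En2, with 10 of 23, where the share over the whole mutant list was 30.7%. Of these, 4 lay within the gene or its first 1 kb, at +0.4, +0.7, +1.1 and +5.3 kb, with 25, 28, 24 and 28 tags and -log10 q values of 2.33 to 4.55. In het 1 wide peak (28165312 to 28166435) covered the En2 promoter and the places at +0.4 and +0.7 kb, so these places were called open in het too. The highest -log10 q of the 10 was at +26.8 kb, with 22 tags and a -log10 q of 7.15. Around Fgf17, 8 of 16 mutant peaks had no WT peak. Of these, 5 lay within 1 kb of TSSs of the neighbouring gene Dmtn, with 13 to 20 tags, and the highest -log10 q of the 8, 8.18, was in an exon of Xpo7 at -40.1 kb, with 15 tags. Around En1, 7 of 17 had none. Of these, the highest -log10 q, 6.11, was at +42.3 kb, with 15 tags and a het peak as well, and the tallest was at +5.6 kb, with 22 tags. Otx2 had 5 of 20, Gbx2 4 of 13, Lmx1a 4 of 24, Barhl2 4 of 18 and Fgf8 3 of 12, and Barhl1 again had none of 14. Differences between genes were not tested.

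When peaks of all 3 lists within 300 bp of each other were merged, the 9 windows held 146 regions, of which 89 (61.0%) were open in all 3 genotypes, against 45.7% of 190582 regions over the genome. WT alone accounted for 12 regions (8.22%, against 13.3%) and mutant alone for 24 (16.4%, against 20.1%). Regions in WT and mutant but not het numbered 12 (8.22%, against 12.7%), those in WT and het but not mutant 3 (2.05%, against 1.66%), and those in het and mutant but not WT 4 (2.74%, against 3.03%). Barhl1 had 13 of 14 regions in all 3 genotypes and Lmx1a 17 of 25. Fgf17 had 7 of 15 and Gbx2 6 of 13, and 6 of the 15 Fgf17 regions were called in mutant alone.

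The 6 boundary genes and the 3 rhombic lip genes were also read apart. Around En1, En2, Gbx2, Otx2, Fgf8 and Fgf17, 15 of 78 WT peaks were unshared (19.2%, 12.0 to 29.3%) and 37 of 101 mutant peaks were unshared (36.6%, 27.9 to 46.4%). Around Lmx1a, Barhl1 and Barhl2 it was 8 of 56 in each direction (14.3%, 7.42 to 25.7%). The mutant interval of the latter lay below the 30.7% of the whole list, and peak numbers there were 56 in both lists. The wider pathways were described by lists of other genes, with Lmx1b on both. The isthmic organizer list includes Cnpy1, whose TSS lies in the En2 window, so some peaks of that window are counted again there. Of 18 further genes of the isthmic organizer, among them Pax2, Wnt1, Spry1 and Etv5, all had a promoter peak in WT and in mutant, and 39 of their 246 WT peaks were unshared with mutant (15.9%, 11.8 to 20.9%), against 22.8% of all. In the other direction 96 of 307 mutant peaks were unshared (31.3%, 26.3 to 36.7%), against 30.7%. Of their 207 shared peaks, 0 were at least 2-fold lower and 3 at least 2-fold higher, against 0.411% and 1.31% of all shared peaks. Their median log2 ratio was 0.10. Of 14 further rhombic lip genes, among them Atoh1, Olig3 and Zic1, 13 had a promoter peak in WT, 13 in het and 14 in mutant, beside the same shares over protein-coding genes. There 42 of 249 WT peaks were unshared (16.9%, 12.7 to 22.0%), as were 65 of 290 in mutant (22.4%, 18.0 to 27.6%), both intervals lying below the whole lists' 22.8% and 30.7%. Of the 207 shared peaks of this list, 0 were 2-fold lower and 1 was 2-fold higher, against the same 0.411% and 1.31% of all. Of the stronger WT peaks, those whose -log10 q was at least 10, none of 89 around the first list and none of 88 around the second lacked a mutant peak, where 0.456% of all such WT peaks did.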

How the data were processed

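ATAC-seq of 8 libraries of GNPs (3 WT, 3 mutant, 2 het) is held in 3 narrow-peak lists, 1 per genotype. Per the submitters' processing notes in the labels, reads were processed with Trim Galore 0.4.1, STAR 2.5.0b (WT, mutant) or Bowtie 1.0.0 (het) and Picard 1.139. Per the file headers, the authors pooled libraries and called peaks with MACS2 2.1.0.20150731 at a q-value cutoff of 0.05. By the same headers, shifting (-100 bp) and extending (200 bp) of reads were set for het alone. The paper's methods instead describe alignment with Bowtie 1.0.0 and the shift without separating groups. The authors deposited pileup at the summit (signal, tags not scaled to depth), -log10 p-values and -log10 q-values, which depend on depth, and fold enrichment, a ratio to the local background.

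The members and gene lists were chosen with earlier results of these data known. Peaks sharing at least 1 bp counted as shared. Pileups were expressed per 1000000 tags, and a WT peak was set against the tallest overlapping mutant peak, with an exact (Clopper-Pearson) conditional 95% interval. Shares have Wilson 95% intervals. PCR copies are not independent molecules, so intervals cover counting error only, and the limit for a count of 0 is 3 counts of the total. Named were, per gene, the strongest peak of each list at its own TSS, the 2 WT peaks of highest -log10 q, the shared WT peaks with the lowest and highest ratio where -log10 q was at least 5, and the strongest unshared peak of either list. Other peaks named, such as the Fgf8 peak at +24.8 kb, the other Otx2 starts and the En2 gene body, were chosen after their values were seen. Scripts were tested on simulated data. Calculations used python 3.11.15, numpy 2.4.6, pandas 2.3.3 and scipy 1.17.1. No peak passed the end of any of 21 chromosomes of the genome used. Alternatives covered the overlap rule, the window, the peak filter, centring, fold enrichment and the partner peak. Location was read at the summit, and the nearest start may belong to a gene on either strand. Promoter entries of RefSeq matched 6 of the 9 genes; En2, Fgf8 and Fgf17 were not among them, and windows at peaks were printed instead.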

Additional observations from a re-analysis of the deposited data

How the results depend on the processing

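No paired analysis was possible because each list is a pool of its libraries, and for the same reason no replicate could be left out. Of 60 recomputed values, 34 stayed within the counting interval, or within 1.5 times the count, of the value reported and 26 did not. The median log2 ratio of mutant to WT stayed between 0.03 (centred on all shared peaks) and 0.12 (fold enrichment) under every alternative run. The number of peaks at least 2-fold lower was 0 with centring, with fold enrichment and with nearest summits, and the number 2-fold higher was 1, 1 and 0; the last setting was chosen after seeing the data.

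The unshared shares depended on the overlap rule and on peak strength. Under overlap rules other than 1 bp the whole lists were not recomputed. Those shares therefore cannot be set against the whole-list shares given above. With 50% reciprocal overlap, 30.6% of WT peaks lacked a mutant peak, 40.8% of mutant peaks a WT peak and 39.6% of WT peaks a het peak. With 50% of the query peak covered, 36.3% of mutant peaks lacked a WT peak, and with a partner within 300 bp 20.1% of WT peaks lacked a het peak. Where -log10 q was at least 5 these 3 shares were 5.95%, 11.3% and 9.52%, against 5.78%, 11.2% and 15.8% of the whole lists. Where it was at least 10 they were 0%, 0% and 2.17%, against 0.456%, 1.21% and 2.999% of the whole lists. Peak numbers followed the window and the filter by construction. For WT, het and mutant in turn they were 66, 51 and 79 with 10 kb on each side, 208, 170 and 246 with 100 kb, and 42, 33 and 53 with 5 kb upstream and 1 kb downstream. They were 84, 80 and 97 where -log10 q was at least 5 and 46, 53 and 52 where it was at least 10. At that strictest filter het had the most peaks, 53, although it had the fewest tags, and its reads were extended further. Depth limits weak peaks most, since a pileup of 9 to 15 tags carries a counting interval that spans more than 2-fold.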
